A study of Rattus norvegicus with 24 samples.

Results

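To follow gene expression in the amygdala after liver surgery, mRNA of the central nucleus of the amygdala (CEA) was compared between rats that had undergone partial hepatectomy (HT) and normal control (NC) rats. The comparison used 6 of the 24 mRNA libraries of the series, namely every CEA library titled HT (n = 3) or NC (n = 3), and the remaining libraries came from the paraventricular nucleus of the hypothalamus (PVN) or from operated rats that were also needled. All rats were male Sprague-Dawley animals, an outbred strain, bought as young adults. HT rats had part of the left liver lobe removed through a midline incision under isoflurane, with no needles placed. NC rats were not operated on, and no sham operation or isoflurane was stated for them, so that loss of liver tissue, the incision and the isoflurane cannot be told apart here. Rats of both groups were habituated to a restraint device and were held in it while the needled groups were stimulated. Brains were collected a day after the last stimulation. The methods state that brain samples were taken from different animals within a single batch. Which rat gave which library was not stated, so that p-values measure the spread between these libraries only.

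The CEA is the main output nucleus of the amygdala. It consists mostly of GABAergic neurons that carry neuropeptides, it receives signals about pain, threat and the state of the body, and it projects to the brainstem and to the hypothalamus, where the neurons that start the hypothalamus-pituitary-adrenal (HPA) stress axis lie. Neuronal firing is followed by transcription of immediate early genes, glucocorticoids that reach the brain act through nuclear receptors on a set of target genes, and blood-borne inflammatory signals reach endothelial cells, astrocytes and microglia. Members of each of these gene groups are described in turn.

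The dissections were checked first with markers of the CEA and of its neighbours. Values are CPM, the read count of a gene relative to the total of its library, scaled between libraries by the trimmed mean of M values (TMM). Genes listed for CEA neurons were present in all 6 libraries, with Penk (preproenkephalin) at 638 to 1070 CPM and Tac1 (tachykinin precursor) at 144 to 278 CPM. Crh, of the same list, was near the detection limit. The 15 genes of this list summed to 2636 to 3727 CPM per library, against 4835 to 9422 CPM for 11 striatal markers. How much of the Penk and Tac1 RNA came from striatum was not tested. Prkcd, which marks a large class of neurons of the lateral CEA and is also high in thalamus, was at 19.1, 312 and 481 CPM in HT replicates 1, 2 and 3 and at 49.5, 481 and 510 CPM in NC replicates 1, 2 and 3. It was therefore low in replicate 1 of both groups. The same 2 libraries had the highest summed level of 11 striatal markers (9422 CPM in HT and 7730 CPM in NC, against 4835 to 5905 CPM in the other 4) and the lowest summed level of 9 thalamic markers (69.2 and 170.8 CPM, against 232.9 to 518.7 CPM). NC replicate 2 stood apart in 12 choroid plexus markers, with a sum of 1395 CPM against 134.9 to 186.2 CPM elsewhere, and its Ttr (transthyretin) level was 929 CPM against 3.59 to 15.6 CPM. HT replicate 2 lay farthest out on the first principal component, which held 36.0% of the variance. Total counts were 16061386 to 18202020 per library, and mitochondrial genes took 10.4% to 14.4% of them in HT and 11.5% to 12.8% in NC.

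**Figure D1:**
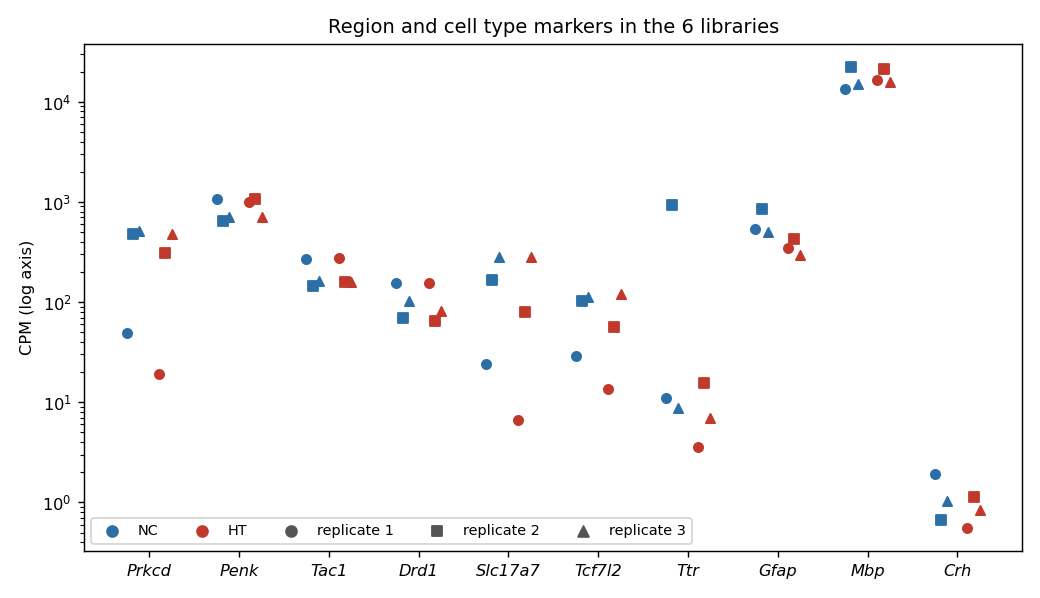
CPM (log axis) of 10 markers of regions and cell types in the 6 CEA libraries; blue points are NC, red points HT, and the shape gives the replicate number. Prkcd, Slc17a7 and Tcf7l2 were lowest in replicate 1 of both groups, and Ttr reached 929 CPM in NC replicate 2 only.

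No gene separated the groups beyond the spread between libraries at the adjusted threshold. Of 16413 genes tested with the quasi-likelihood test of edgeR, 0 (0.0%) had an adjusted p under 0.05, and the smallest adjusted p was 0.132. An unadjusted p under 0.05 was found for 616 genes, where 5% of the genes tested would be 821. They were 385 genes higher in HT (2.35% of those tested) and 231 lower (1.41%). In 962 genes (5.86%) every HT library lay above every NC library, and in 762 (4.64%) every HT library lay below every NC library. The median log2 fold change over all genes, HT minus NC, was 0.016. With DESeq2, 26 of 17464 genes had an adjusted p under 0.05. HT was above NC in 16 of these (0.0916%) and below in 10 (0.0573%), and all 26 had an edgeR unadjusted p under 0.05. Same-numbered libraries of both groups deviated together. With the replicate number as a block the adjusted count was 0 and the unadjusted count was 985. Of these, 471 genes were higher and 514 lower, so that the larger share was then lower. Leaving out single libraries moved the unadjusted count from 257 (without NC replicate 3) and 336 (without NC replicate 2) to 969 (without HT replicate 3) and 1299 (without HT replicate 1). Without HT replicate 2, 1 gene passed the adjusted threshold. The genes below are given with their values in each library, in the order of replicates 1, 2 and 3, and where a gene had an edgeR unadjusted p under 0.05 its adjusted p was 0.918 unless stated. A marker group that differs in summed level can reflect fewer cells or less RNA per cell, which bulk tissue cannot tell apart.

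Several immediate early genes, which neurons transcribe within minutes of strong activity, had lower levels in every HT library than in any NC library. All 26 genes of the list were tested, and 8 had an unadjusted p under 0.05, 8 of them lower and 0 higher. In 7 the groups did not overlap, with HT below NC. The list's median log2 fold change was -0.43, and 22 of its 26 genes were fitted lower. The summed level of the list was 662.0, 645.7 and 637.8 CPM in HT against 741.9, 961.9 and 949.1 CPM in NC, with NC replicate 1 the lowest control.

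Nr4a1 and Egr2, 2 of the 4 named genes of this list, are shown here with their promoters because their levels separated the groups and because the binding motifs of activity-driven transcription factors can be read in these windows. The windows run from 250 bases before to 50 bases after the annotated start of the gene and come from RefSeq (build GRCr8). Capitals mark the core of the cyclic AMP response element (TGACG, or CGTCA on the other strand) and, in Egr2, a CArG box, the motif of serum response factor. The capitals of the 2 motifs do not run into each other.
Nr4a1 (chr7:134259888-134260187, plus strand): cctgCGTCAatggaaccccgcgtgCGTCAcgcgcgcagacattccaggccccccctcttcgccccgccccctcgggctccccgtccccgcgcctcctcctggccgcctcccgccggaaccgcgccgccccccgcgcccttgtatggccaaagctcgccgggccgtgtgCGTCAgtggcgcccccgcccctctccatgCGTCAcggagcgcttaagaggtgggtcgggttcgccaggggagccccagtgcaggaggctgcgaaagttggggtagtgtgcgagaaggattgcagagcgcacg
Egr2 (chr20:21054392-21054691, minus strand): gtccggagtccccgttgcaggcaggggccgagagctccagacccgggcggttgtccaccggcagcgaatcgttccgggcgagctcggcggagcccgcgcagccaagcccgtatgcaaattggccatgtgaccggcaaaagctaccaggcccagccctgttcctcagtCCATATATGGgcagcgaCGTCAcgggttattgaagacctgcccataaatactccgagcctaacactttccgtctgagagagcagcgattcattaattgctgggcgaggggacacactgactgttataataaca
The Nr4a1 window held 4 copies of the TGACG core and 0 CArG boxes, and the Egr2 window held 1 of each. Of the 26 tested genes of the list, 19 had a window. Among these, 11 held the TGACG core and 2 held a CArG box (Egr1 and Egr2), on either strand. Of the 27457 windows of all genes, 22% held the TGACG core and 1.64% a CArG box. A match describes the letters of a window and does not show binding.

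Fos, the AP-1 subunit most used as a sign of recent neuronal activity, was at 3.71, 4.92 and 6.39 CPM in HT and at 9.995, 21.3 and 17.4 CPM in NC. The log2 fold change was -1.69 ± 0.33 (SE), with an edgeR unadjusted p of 0.000988. Every HT library lay below the lowest NC library, and DESeq2 called the gene (adjusted p = 0.00224). Nr4a1, an orphan nuclear receptor induced by activity and by stress, was at 31.7, 23.1 and 23.6 CPM in HT against 43.4, 78.5 and 62.3 CPM in NC (log2 fold change -1.23 ± 0.24, edgeR unadjusted p = 0.00101, DESeq2 adjusted p = 0.00399). Egr2, a zinc finger transcription factor, was at 5.75, 3.84 and 3.36 CPM in HT against 8.57, 20.1 and 13.8 CPM in NC (log2 fold change -1.71 ± 0.36, edgeR unadjusted p = 0.00149, DESeq2 adjusted p = 0.00444). In all 3 genes NC replicate 1 was the lowest control and NC replicate 2 the highest. Egr1, the best-known member of the same family, differed less, with 95.3, 73.0 and 76.0 CPM in HT against 128, 122 and 120 CPM in NC (log2 fold change -0.60 ± 0.15, edgeR unadjusted p = 0.00368). Nr4a3 (-0.85), Junb (-0.50) and Npas4 (-0.89) did not overlap between groups either, although Npas4 missed the unadjusted threshold (edgeR unadjusted p = 0.0602). Arc (-0.85) and Egr4 (-0.63) passed the unadjusted threshold but overlapped between groups. The other members overlapped and missed the unadjusted threshold, among them Fosb at a log2 fold change of -0.31 and Dusp1, a phosphatase, at -0.65. The count of lower genes was 4 without NC replicate 2, 4 without NC replicate 3 and 5 without HT replicate 2, and the median of the list stayed between -0.64 and -0.31 over 14 alternatives.

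**Figure D2:**
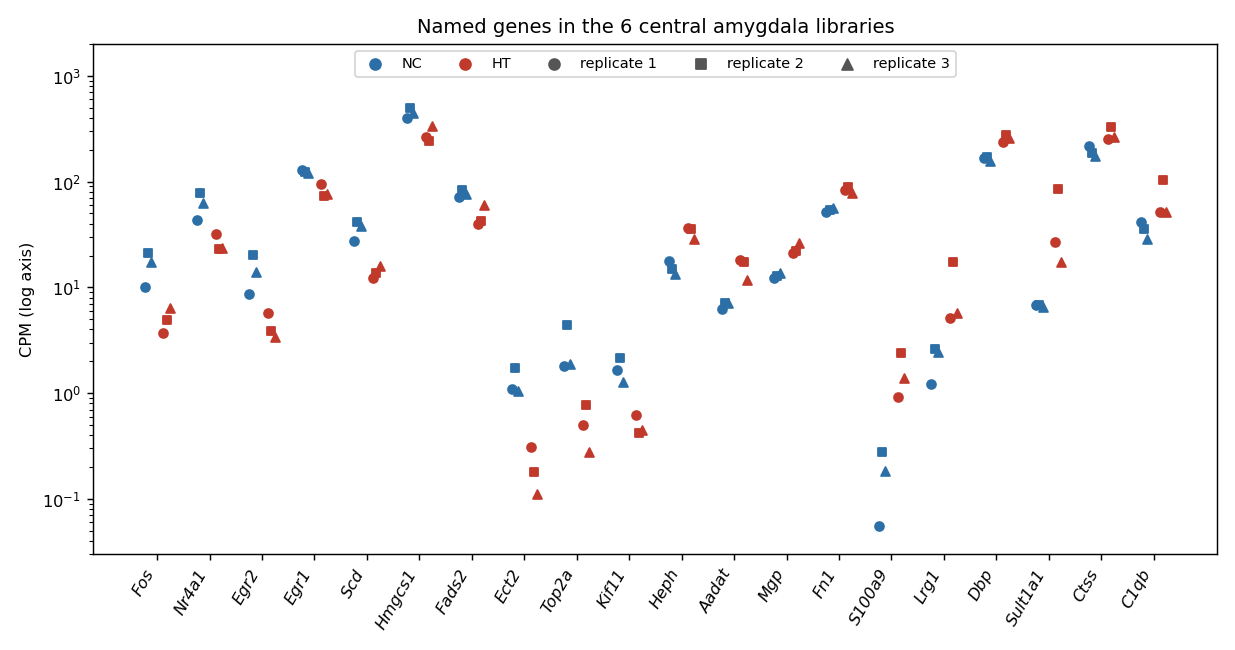
CPM (log axis) of 20 named genes in the 6 CEA libraries; blue points are NC, red points HT, and the shape gives the replicate number. The groups do not overlap in any of the 20 genes, with HT below NC from Fos to Kif11 and above NC from Heph to C1qb.

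Genes of cholesterol and fatty acid synthesis also had lower values in HT. These enzymes, many of them under the control of sterol regulatory element binding proteins, supply membrane and myelin lipid in the brain, where cholesterol is made locally. Of 27 genes tested 13 had an unadjusted p under 0.05, all 13 lower, and in 15 every HT library lay below every NC library. The median log2 fold change was -0.34, with 24 of 27 genes fitted lower. The summed level was 7157, 6294 and 7670 CPM in HT against 8404, 10530 and 8869 CPM in NC.

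Scd, the desaturase that makes monounsaturated fatty acids, stood out in this list, with 12.2, 13.6 and 16.03 CPM in HT against 27.5, 41.6 and 38.3 CPM in NC. Its log2 fold change was -1.36 ± 0.20 (edgeR unadjusted p = 0.000166, adjusted p = 0.546), and DESeq2 called it at an adjusted p of 5.33e-05. Fads2, a desaturase of polyunsaturated fatty acids, was at 39.6, 42.0 and 59.6 CPM in HT and at 71.9, 83.3 and 76.8 CPM in NC (log2 fold change -0.72 ± 0.18, edgeR unadjusted p = 0.00461). Its neighbour Fads1 had a log2 fold change of -0.60 ± 0.17. Hmgcs1, which makes the HMG-CoA used for sterols, was at 263, 244 and 337 CPM in HT and at 399, 495 and 445 CPM in NC (log2 fold change -0.67 ± 0.17, edgeR unadjusted p = 0.00510). Later steps of the sterol pathway differed by smaller amounts in the same direction. The log2 fold change was -0.48 for Cyp51, -0.34 for Msmo1, -0.34 for Sc5d and -0.46 for Idi1, and it was -0.39 for Fasn, the fatty acid synthase. None of the 19 members with a promoter window held the letters CACCCCAC, the core of a sterol regulatory element, on either strand, against 2.57% of all windows. The search covered these exact letters in these windows only, so that it does not tell whether such elements control the genes. The count of lower genes was 4 without NC replicate 2, where 1 gene was higher, and 4 without NC replicate 3, while the median stayed between -0.40 and -0.29. Summed oligodendrocyte markers, the cells that make most of the lipid of myelin, overlapped between groups (29400 to 39330 CPM in HT and 26650 to 43440 CPM in NC) and were highest in NC replicate 2. Their part in the result was not tested.

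Genes of cell division were detected at low levels, and 7 of them were lower in every HT library. Of 25 genes tested 7 had an unadjusted p under 0.05, all 7 lower and without overlap, and the median log2 fold change was -0.50. The summed level was 64.50, 68.43 and 54.26 CPM in HT and 68.53, 91.10 and 74.33 CPM in NC, so that NC replicate 1 and HT replicate 2 were almost level. Without HT replicate 2 the count of lower genes was 12 and the median was -0.76. Ect2 and Top2a are shown with their promoters because the cell cycle gene homology region (CHR, TTTGAA or TTCAAA) and the CCAAT box (CCAAT or ATTGG) lie in both. Capitals mark these 2 motifs, which do not run into each other here.
Ect2 (chr2:111966577-111966876, minus strand): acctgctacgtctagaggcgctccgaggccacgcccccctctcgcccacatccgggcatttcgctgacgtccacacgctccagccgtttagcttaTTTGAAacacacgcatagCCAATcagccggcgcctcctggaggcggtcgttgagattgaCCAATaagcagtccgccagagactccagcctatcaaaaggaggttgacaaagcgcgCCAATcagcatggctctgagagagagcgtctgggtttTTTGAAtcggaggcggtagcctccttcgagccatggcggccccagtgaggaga
Top2a (chr10:84473044-84473343, minus strand): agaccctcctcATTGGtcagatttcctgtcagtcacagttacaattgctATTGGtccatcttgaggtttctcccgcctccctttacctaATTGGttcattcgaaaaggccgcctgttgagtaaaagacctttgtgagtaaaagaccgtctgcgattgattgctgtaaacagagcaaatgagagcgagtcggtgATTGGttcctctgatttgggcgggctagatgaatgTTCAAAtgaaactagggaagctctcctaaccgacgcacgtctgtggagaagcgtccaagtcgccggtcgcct
The Ect2 window held 2 CHR and 3 CCAAT matches, and the Top2a window held 1 and 4. Of the 25 tested genes 20 had a window, of which 12 held the CHR letters and 16 the CCAAT letters, against 18.1% and 37.7% of all windows.

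Ect2, an exchange factor needed for cytokinesis, was at 0.309, 0.180 and 0.112 CPM in HT and at 1.10, 1.71 and 1.04 CPM in NC (log2 fold change -2.65 ± 0.51, edgeR unadjusted p = 0.000984). These levels correspond to 5, 3 and 2 counts in HT and to 20, 31 and 17 counts in NC. Top2a, the topoisomerase of dividing cells, was at 0.495, 0.780 and 0.280 CPM in HT and at 1.81, 4.42 and 1.90 CPM in NC (log2 fold change -2.38 ± 0.54, edgeR unadjusted p = 0.00254). Kif11, a spindle motor, had a log2 fold change of -1.76 ± 0.39, and Nusap1, a spindle protein, had one of -2.22 ± 0.50. Cenpf (-2.23), Pbk (-1.69) and Mki67 (-0.98), the gene of the proliferation antigen Ki-67, did not overlap between groups either. Ckap2l, a spindle protein outside the list, was at 0.124, 0.240 and 0.224 CPM in HT and at 1.04, 1.27 and 0.918 CPM in NC (log2 fold change -2.41 ± 0.46, edgeR unadjusted p = 0.000929). DESeq2 called none of these genes, with an adjusted p of 0.0555 for Top2a. The other cell division genes did not separate the groups, and Aurka was fitted higher in HT (0.32). Oligodendrocyte precursors, a cell type that divides in adult brain, overlapped in summed marker level, with 219.2 to 227.5 CPM in HT and 219.7 to 274.1 CPM in NC.

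**Figure D3:**
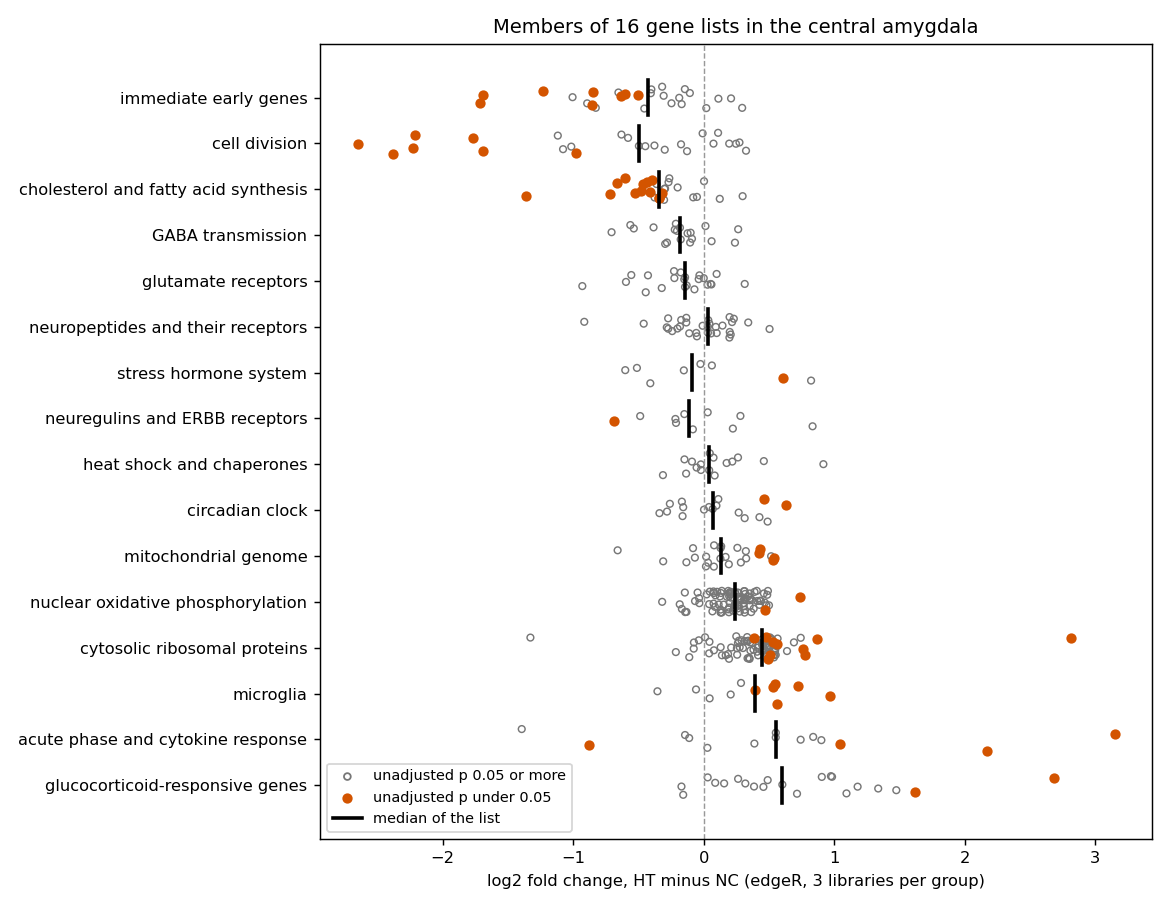
Log2 fold change (HT minus NC, edgeR) of each tested member of 16 gene lists; filled points have an unadjusted p under 0.05 and the black bar is the list's median. Medians ran from -0.50 for cell division to 0.60 for glucocorticoid-responsive genes, and 0 members passed the adjusted threshold.

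Among genes that were higher in HT, Heph and Aadat separated the groups with little spread. Heph (hephaestin, a ferroxidase that helps iron leave cells; chromosome X, 65563122 to 65658516 in the table's coordinates) was at 36.8, 35.8 and 28.5 CPM in HT and at 17.7, 15.03 and 13.3 CPM in NC. Its log2 fold change was 1.13 ± 0.17 (edgeR unadjusted p = 0.000227, adjusted p = 0.621), and DESeq2 called it at an adjusted p of 0.000245. Scaled over all 24 libraries, Heph was at 20.8 to 46.1 CPM in the operated and needled CEA libraries (HT+EA and SEA), at 26.2 to 43.4 CPM in the 9 PVN libraries of operated rats, and at 13.8 to 16.01 CPM in the PVN of NC rats. Aadat, an aminotransferase of the lysine and kynurenine pathways, was at 18, 17.3 and 11.7 CPM in HT and at 6.26, 7.13 and 7.16 CPM in NC (log2 fold change 1.19 ± 0.22, edgeR unadjusted p = 0.000649, DESeq2 adjusted p = 0.00522).

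Mgp, a matrix protein of vessels and meninges that inhibits calcification, was at 21.3, 22.2 and 26.5 CPM in HT against 12.1, 12.7 and 13.8 CPM in NC (log2 fold change 0.86 ± 0.16, edgeR unadjusted p = 0.000660, DESeq2 adjusted p = 0.0251). Fn1, fibronectin, was at 83.4, 88.7 and 78.7 CPM in HT against 51.7, 53.8 and 56.3 CPM in NC (log2 fold change 0.63 ± 0.12, edgeR unadjusted p = 0.000863, DESeq2 adjusted p = 0.0282). Both belong to the list of meningeal and fibroblast markers, whose 14 tested genes held 2 higher and 2 lower at an unadjusted p under 0.05, with a median log2 fold change of -0.34. The median was -0.19 without NC replicate 2, and the lower count was 4 without HT replicate 1 and 3 without NC replicate 1, NC replicate 3 or HT replicate 3. The lower ones were Col8a1 (-2.62 ± 0.63) and Igf2 (-1.003 ± 0.31), both highest in NC replicate 2, the library with choroid plexus RNA. Igf2 was at 67.4 CPM there, at 36.0 and 30.2 CPM in the other controls and at 18.4 to 25.9 CPM in HT. The share of choroid plexus RNA in these differences was not tested.

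Genes of the acute phase and of cytokine responses showed 3 members higher and 1 lower at an unadjusted p under 0.05 among 14 tested, with a median log2 fold change of 0.55 (0.37 without HT replicate 3). The cytokine genes Il1b, Il6, Tnf, Ccl2 and Cxcl1 and the endothelial selectins Sele and Selp did not reach the count needed for testing. S100a9, a calgranulin carried by neutrophils and monocytes, was at 0.928, 2.40 and 1.40 CPM in HT (15, 40 and 25 counts) and at 0.0549, 0.276 and 0.184 CPM in NC (1, 5 and 3 counts). Its log2 fold change was 3.15 ± 0.63 (edgeR unadjusted p = 0.00120, DESeq2 adjusted p = 0.0492). Lrg1, a glycoprotein made by endothelium and liver in inflammation, was at 5.13, 17.4 and 5.72 CPM in HT and at 1.21, 2.60 and 2.45 CPM in NC (log2 fold change 2.17 ± 0.55, edgeR unadjusted p = 0.00448, DESeq2 adjusted p = 0.0251). Hp, haptoglobin, was at 4.02, 2.52 and 2.19 CPM in HT and at 1.70, 1.16 and 1.35 CPM in NC (log2 fold change 1.05 ± 0.35, edgeR unadjusted p = 0.0188). C3, the central complement component, was lower, with 9.40, 9.25 and 10.7 CPM in HT and 13.1, 30.1 and 10.8 CPM in NC (log2 fold change -0.88 ± 0.37, edgeR unadjusted p = 0.0479), and NC replicate 2 was again the high library. The lower count of this list was 0 with the replicate block and without NC replicate 2 or any single HT library, and 2 without NC replicate 1 or NC replicate 3. Markers of red blood cells had 0 of 5 genes at an unadjusted p under 0.05, a median of -0.17, and sums of 692.5 to 1106 CPM in HT against 976.8 to 1369 CPM in NC. Their median was -0.35 without HT replicate 3, and without HT replicate 1 it was 0.08, with 1 gene higher and 1 lower. The count was 0 higher and 1 lower without NC replicate 2, HT replicate 2 or HT replicate 3. Hba-a2 had a log2 fold change of -0.28. Hbb had one of 0.69 and was highest in HT replicate 2, at 13.6 CPM against 1.98 to 6.56 CPM elsewhere, the library that was also highest for S100a9 and Lrg1. The part of blood left in the tissue was not tested.

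Glucocorticoid-responsive genes had mostly higher fitted values in HT, and HT replicate 2 set most of the difference. Of 21 genes tested 19 were fitted higher, with a median log2 fold change of 0.60, and 2 had an unadjusted p under 0.05. The summed level was 693.5, 1984 and 746.6 CPM in HT and 674.6, 992.1 and 837.1 CPM in NC, so that HT replicates 1 and 3 lay within the controls. With the replicate block the median was 0.30, and without HT replicate 3 it was 0.94. Without HT replicate 2 the median was -0.20, with 6 genes fitted higher and 15 lower, while 6 genes were higher at an unadjusted p under 0.05 without HT replicate 1 or HT replicate 3. Cdkn1a, a cell cycle inhibitor, was at 103 CPM in HT replicate 2 and at 7.11 to 26.3 CPM elsewhere, and Ddit4, an inhibitor of mTOR signalling, was at 302 CPM there and at 74.9 to 146 CPM elsewhere. Fkbp5, a chaperone that restrains the glucocorticoid receptor, was at 88.3, 152 and 61.1 CPM in HT and at 75.2, 49.96 and 58.0 CPM in NC (log2 fold change 0.72 ± 0.32, edgeR unadjusted p = 0.0600).

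The 2 members whose groups did not overlap were Sult1a1 and Mt2A. Sult1a1, a phenol sulfotransferase, was at 26.8, 85.7 and 17.3 CPM in HT and at 6.76, 6.85 and 6.55 CPM in NC (log2 fold change 2.69 ± 0.57, edgeR unadjusted p = 0.00161, DESeq2 adjusted p = 9.26e-05). Mt2A, a metallothionein that binds zinc and copper, was at 48.2, 162 and 52.9 CPM in HT and at 23.9, 27.9 and 34.0 CPM in NC (log2 fold change 1.62 ± 0.46, edgeR unadjusted p = 0.00853). HT replicate 2 was the highest library in both, and HT replicates 1 and 3 also lay above all controls.

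In the stress hormone system, Crh, the peptide that starts the HPA axis and is also made in the CEA, was near the detection limit in the dissected tissue. It was at 0.557, 1.14 and 0.841 CPM in HT (9, 19 and 15 counts) and at 1.92, 0.663 and 1.04 CPM in NC (35, 12 and 17 counts). The groups overlapped (log2 fold change -0.51 ± 0.51, edgeR unadjusted p = 0.342). With single libraries left out the value ran from -0.80 to -0.0045, and without replicate 1 of both groups it was 0.22. Of 8 genes tested 1 had an unadjusted p under 0.05, and 0 had without NC replicate 1 or HT replicate 3. This was Hsd11b1, the enzyme that regenerates active glucocorticoid inside cells, at 45.8, 63.6 and 71.0 CPM in HT and at 33.6, 40.3 and 44.7 CPM in NC (log2 fold change 0.60 ± 0.20, edgeR unadjusted p = 0.0156). Nr3c2, the mineralocorticoid receptor, was at 12.9, 7.74 and 12.6 CPM in HT and at 14.8, 13.9 and 15.4 CPM in NC (log2 fold change -0.41 ± 0.22, edgeR unadjusted p = 0.106). The receptor Crhr1 had a log2 fold change of 0.06 and Crhbp, the binding protein of the peptide, one of -0.15. The median of this list was -0.09, but it was 0.05 with DESeq2, 0.12 without NC replicate 3 and -0.24 without NC replicate 2, and no gene had an unadjusted p under 0.05 without NC replicate 1 or HT replicate 3.

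Among clock genes, Dbp and Nr1d1 had higher values in HT. Of 17 genes tested 2 had an unadjusted p under 0.05, both higher, and 4 did not overlap, with a median log2 fold change of 0.07 (0.013 without NC replicate 1 to 0.15 without NC replicate 3). The count of higher genes was 4 without HT replicate 2 and 1 without NC replicate 1, NC replicate 2 or HT replicate 3, and 1 gene was lower without HT replicate 1, HT replicate 2 or NC replicate 2. Dbp, a clock output transcription factor that follows the phase of the clock closely, was at 239, 273 and 257 CPM in HT and at 166, 173 and 158 CPM in NC (log2 fold change 0.63 ± 0.13, edgeR unadjusted p = 0.00135, DESeq2 adjusted p = 0.0213). Nr1d1, the repressor REV-ERBα of the clock loop, was at 55.2, 65.6 and 72.6 CPM in HT and at 43.2, 46.7 and 50.5 CPM in NC (log2 fold change 0.46 ± 0.15, edgeR unadjusted p = 0.0145). Ciart (0.49 ± 0.23) and Bhlhe41 (0.11 ± 0.12) did not overlap but missed the unadjusted threshold. By the methods, brains of all groups were taken at 1 time, and clock time was not given for single rats. An E-box of the letters CACGTG stood in the windows of Ciart and Bhlhe41 and in 4 of the list's 14 windows, against 6.65% of all windows. The windows of Dbp and Nr1d1 held 0.

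Several microglial markers had higher values in HT. Of 11 genes tested 6 had an unadjusted p under 0.05, all higher, and the median log2 fold change was 0.40. The summed level was 847.1, 994.7 and 827.6 CPM in HT and 747.5, 679.7 and 591.0 CPM in NC, without overlap. Ctss, a lysosomal protease, was at 250, 325 and 264 CPM in HT and at 217, 187 and 176 CPM in NC (log2 fold change 0.53 ± 0.16, edgeR unadjusted p = 0.0109). The complement chains C1qb (0.96 ± 0.30), C1qc (0.72 ± 0.27) and C1qa (0.56 ± 0.22) and the lipid receptor Trem2 (0.40 ± 0.15) were the other members, with Tmem119 (0.55 ± 0.22). The resting-state receptors Cx3cr1 (-0.06 ± 0.27) and P2ry12 (-0.35 ± 0.33) lay within the spread. C1qb was at 104 CPM in HT replicate 2 and at 51.6 and 51.5 CPM in the other HT libraries, against 28.7 to 41.6 CPM in NC. The count of higher genes was 1 without NC replicate 3 and 3 without HT replicate 2 or NC replicate 2, while the median stayed between 0.34 and 0.43.

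Astrocyte markers held differences in both directions. Of 17 genes tested 2 were higher and 2 lower at an unadjusted p under 0.05, with a median of 0.011 (-0.056 without NC replicate 3 to 0.053 without NC replicate 2). The higher count was 1 without any single NC library or HT replicate 2 and 3 without HT replicate 1, and the lower count was 3 without HT replicate 3. Aqp4, the water channel of astrocyte endfeet, was at 432, 443 and 532 CPM in HT and at 690, 861 and 673 CPM in NC (log2 fold change -0.66 ± 0.16, edgeR unadjusted p = 0.00411). Gfap, an intermediate filament, was at 345, 422 and 294 CPM in HT and at 534, 853 and 499 CPM in NC (log2 fold change -0.83 ± 0.24, edgeR unadjusted p = 0.00998). Ndrg2 (0.67 ± 0.19) and the glycolytic enzyme Aldoc (0.54 ± 0.22) were higher. Their summed list overlapped, with 10690 to 13160 CPM in HT and 10520 to 12150 CPM in NC.

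The other cell type lists gave few differences. In endothelium 1 of 10 genes was higher, Vwf (0.61 ± 0.23), the gene of von Willebrand factor, with a median of 0.14 (-0.0031 without HT replicate 3 to 0.32 without HT replicate 2), and the summed level did not overlap, with 730.3 to 799.1 CPM in HT and 584.0 to 699.1 CPM in NC. Its one member without overlap was Esam (0.29 ± 0.15). In mural cells 1 of 9 was higher, the potassium channel subunit Kcnj8 (0.48 ± 0.19), with a median of -0.10 (0.05 without NC replicate 2 and 0.13 without HT replicate 2), and Vtn did not overlap (0.33 ± 0.16). The mural count was 0 with the replicate block and without any single NC library, and 3 without HT replicate 2. The endothelial count was 0 without NC replicate 1, NC replicate 2, HT replicate 1 or HT replicate 3 and 3 without HT replicate 2. In ependyma 1 of 4 was higher, Rarres2, the gene of the attractant chemerin, at 19.4, 18.7 and 17.6 CPM in HT and at 10.9, 13.7 and 11.0 CPM in NC (log2 fold change 0.65 ± 0.16, edgeR unadjusted p = 0.00431). The list's median was 0.46, but it was -0.65 without HT replicate 2, where 1 gene was lower, 0.25 without NC replicate 3, 0.74 without NC replicate 2 and -0.009 with the replicate block. In choroid plexus 2 of 7 genes were lower, Ttr (-5.18 ± 1.82) and Slc4a5 (-2.84 ± 1.09), and the count was 0 without NC replicate 2, HT replicate 1 or HT replicate 3 and 5 without NC replicate 1 or 3. No gene reached an unadjusted p of 0.05 among 12 of oligodendrocytes (median -0.04, Ermn -0.40 and Ugt8 -0.25) or 6 of their precursors (-0.21, Pdgfra -0.22 and Cspg4 0.20). The same held for 15 genes of CEA neurons (0.04, Wfs1 0.70 and Cyp26b1 0.42), 11 of striatum (0.11, Rgs9 0.33 and Ppp1r1b 0.24) and 12 of cortical and basolateral amygdala excitatory neurons (-0.03, Cux2 -0.40 and Neurod2 -0.56). It also held for 9 of thalamus (-0.53, Lhx9 -1.81 and Tnnt1 -0.53) and 4 of hypothalamus (-0.12, Hcrt -1.16 and Trh -0.33). With the replicate block 4 thalamic genes, 1 of the cortical list and 1 of CEA neurons were lower at an unadjusted p under 0.05. Without HT replicate 3 the thalamic count was 2 lower and the cortical count 4 lower, without NC replicate 1 it was 2 lower for thalamus, and without HT replicate 2 it was 2 lower for hypothalamus. With single libraries left out, the median of the cortical list ran from -1.20 without HT replicate 3 to 0.67 without NC replicate 3, and that of the hypothalamic list from -1.27 without HT replicate 2 to 0.93 without NC replicate 1 (1.36 without both libraries numbered 1). The median of CEA neurons ran from -0.10 without HT replicate 2 to 0.37 without NC replicate 1, and 1 gene was higher without HT replicate 3. That of the striatal list was -0.18, with all 11 genes fitted lower, without HT replicate 1, 0.20, with all 11 fitted higher, without HT replicate 2 and 0.30 without NC replicate 1. The median ran from -0.14 without NC replicate 1 to 0.18 without NC replicate 2 for oligodendrocytes, and from -0.29 without NC replicate 3 to -0.11 without NC replicate 2 for their precursors. All 9 thalamic genes were fitted lower in HT, where replicate 1 had the lowest sum of all libraries, but without that library 4 were fitted higher and the median was -0.29, and without HT replicate 3 it was -1.19.

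**Figure D4:**
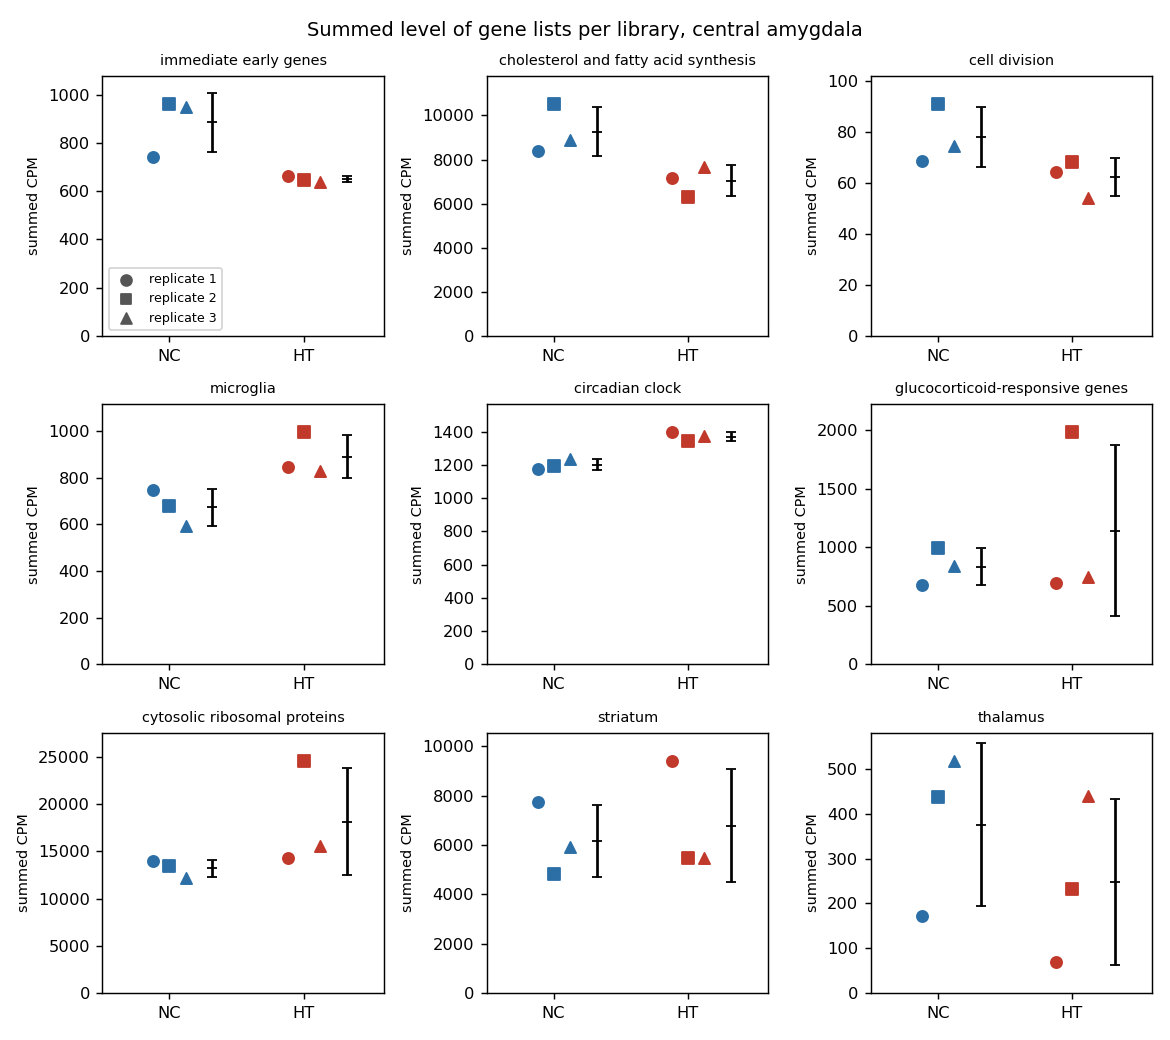
Summed CPM of 9 gene lists per library in NC (blue) and HT (red), with the shape giving the replicate number and the bar the mean ± SD of the 3 libraries. HT lies below NC for immediate early genes, cholesterol and fatty acid synthesis and cell division and above NC for microglia, circadian clock and ribosomal proteins, while HT replicate 2 sets the glucocorticoid list at 1984 CPM and replicate 1 of both groups is highest for striatum and lowest for thalamus.

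Genes of cytosolic ribosomal proteins were fitted higher in 81 of 87 tested members, with a median log2 fold change of 0.45. At an unadjusted p under 0.05, 10 were higher and 0 lower, and in 30 every HT library lay above every NC library. The summed level was 14310, 24630 and 15580 CPM in HT and 13990, 13470 and 12200 CPM in NC. HT replicate 2 was thus far above the rest, and HT replicate 1 lay close to NC replicate 1. Rpl41, a very short protein of the large subunit, was at 356, 635 and 385 CPM in HT and at 291, 259 and 252 CPM in NC (log2 fold change 0.78 ± 0.23, edgeR unadjusted p = 0.0110). Rps27, of the small subunit, had a log2 fold change of 0.56 ± 0.22. Rpl7a differed through HT replicate 1, which had 104 CPM against 9.55 and 9.02 CPM in the other HT libraries and 3.67 to 7.30 CPM in NC. Ribosomal protein genes have many processed copies, and how reads shared with these were counted was not stated. Without HT replicate 2 the median was 0.15 with 2 genes higher, without NC replicate 2 the count was 1, without NC replicate 3 it was 2, without HT replicate 3 it was 16, and without HT replicate 1 it was 47.

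Nuclear genes of oxidative phosphorylation, the respiratory chain of mitochondria, were mostly fitted higher but overlapped in sum. Of 92 tested 82 were fitted higher, 2 had an unadjusted p under 0.05 (both higher, a share no larger than the 2.35% of all genes) and the median log2 fold change was 0.24. The sums were 12880, 20660 and 15850 CPM in HT and 14110, 14360 and 14190 CPM in NC, with HT replicate 1 below all controls. Uqcr11, a subunit of complex III, had a log2 fold change of 0.47 ± 0.16, Ndufa4l2 one of 0.74 ± 0.26, Atp5f1e one of 0.49 ± 0.22 and Cox8a one of 0.28 ± 0.13. Without HT replicate 2 the median was 0.0044, with 48 genes fitted higher and 44 lower. The count of higher genes was 36 without HT replicate 1, 1 without NC replicate 1, 1 without NC replicate 2 and 0 without NC replicate 3. Of the 24 tested genes of the mitochondrial genome 4 were higher, with a median of 0.13. That count was 1 without NC replicate 2, NC replicate 3 or HT replicate 3 and 0 with all 4 CEA groups in one fit, and the median was 0.013 without HT replicate 3 and 0.27 without HT replicate 2. HT replicate 2 had the lowest sum of this list among the 6 libraries (105900 CPM) and the highest sums of the ribosomal and the nuclear respiratory genes.

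The histocompatibility genes of the rat, named RT1, held the gene of smallest p in the comparison. The list was drawn up by name and description and was not limited to class I. Its genes present peptides to T cells. Those of class I form a family of near-identical copies on chromosome 20 that differs between animals, so that counts of single members are uncertain. LOC103690108 (described as a class I antigen of the Non-RT1.A type, chromosome 20, 3791407 to 3794027 on the minus strand in the table's coordinates) had 396, 896 and 479 counts in HT and 0 counts in each NC library. Its levels in HT were 24.5, 53.8 and 26.8 CPM. Against a floor of 3 counts in each NC library it was at least 205-fold higher, with an edgeR unadjusted p of 8.03e-06 and an adjusted p of 0.132. It was the gene that passed without HT replicate 2 (edgeR adjusted p = 0.0493) and without the low-count filter (0.00140), and DESeq2 called it at 4.05e-17. In the other operated CEA libraries it was at 25.99, 20.1 and 27.3 CPM in HT+EA and at 0, 0.251 and 46.1 CPM in SEA, scaled over all 24 libraries, so that operated rats fell on both sides. In the PVN it was at 35.1 to 73.1 CPM in HT, at 32.4 to 35.6 CPM in HT+EA, at 0 to 0.164 CPM in NC and at 0, 0.0647 and 69.4 CPM in SEA, which was again split.

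LOC100364500 (RT1 class I, locus CE11-like) was at 1.36, 6.24 and 3.53 CPM in HT (22, 104 and 63 counts) and had 1, 3 and 1 counts in NC, with a log2 fold change of 5.19 ± 0.76 (edgeR unadjusted p = 0.000160, adjusted p = 0.546, DESeq2 adjusted p = 1.63e-05). RT1-CE10 was at 2.72, 5.58 and 3.64 CPM in HT and at 0.275, 0.940 and 0.245 CPM in NC (log2 fold change 3.01 ± 0.57, edgeR unadjusted p = 0.000830, DESeq2 adjusted p = 0.000747). RT1-A1, a classical class I gene, had a log2 fold change of 1.30 ± 0.44. These were 4 of 22 members tested, 13 of which were fitted higher, and the median of the list was 0.13. The median was 0.24 without NC replicate 1 or NC replicate 2 and 0.20 without HT replicate 2, and 1 gene was lower without HT replicate 1 and 2 were without HT replicate 3. RT1-A2 overlapped between groups (0.96), and RT1-S3 (-0.51) and RT1-T24-4 (-0.86) were fitted lower.

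The remaining named genes had little in common in their descriptions. Those lower in HT included LOC103692570, described as like dihydropyrimidinase-related protein 5, at 3.09, 3.42 and 3.42 CPM in HT and at 11.0, 8.12 and 9.55 CPM in NC (log2 fold change -1.53 ± 0.21, edgeR unadjusted p = 0.000113, adjusted p = 0.546). LOC103689999, described as a saccharopine dehydrogenase-like oxidoreductase, was at 5.44, 4.68 and 2.52 CPM in HT and at 15.1, 18.6 and 20.9 CPM in NC (log2 fold change -2.11 ± 0.30, edgeR unadjusted p = 0.000135, adjusted p = 0.546). Outside this comparison both varied widely, with LOC103689999 at 3.39 to 37.9 CPM and LOC103692570 at 0.867 to 16.2 CPM in the needled CEA libraries, scaled over all 24. LOC103694855, described as like hemoglobin subunit beta-2, was lower by -2.20 ± 0.45 and LOC103693189, a tyrosine phosphatase of type IVA 1, by -2.17 ± 0.48 on the log2 scale. These also varied widely in the needled CEA libraries, with LOC103694855 at 0.802 to 7.26 CPM and LOC103693189 at 1.19 to 6.86 CPM. Names that start with LOC are predicted genes that can share reads with the gene they resemble. DESeq2 in addition called Gtpbp6 (1.63 ± 0.37, edgeR estimate), Ino80b (2.93 ± 0.68) and LOC103689931 (1.70 ± 0.43) as higher, and LOC108348098 (-2.42 ± 0.64) and AABR07027088.1 (-3.30 ± 0.88) as lower. AABR07027088.1 overlapped between groups through NC replicate 1, at 0.989 CPM. A further 2 DESeq2 calls were transcripts assembled without an Ensembl identifier, both higher in HT.

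Single genes of synaptic transmission missed the unadjusted threshold. Of 19 genes of GABA transmission 0 had an unadjusted p under 0.05, with a median log2 fold change of -0.18 (-0.10 without NC replicate 1 or HT replicate 2). The summed level of these GABA genes was nevertheless lower in every HT library, at 3777, 4135 and 4455 CPM against 4528, 4499 and 4604 CPM in NC. With the replicate block 1 gene of the list was lower at an unadjusted p under 0.05, and 3 were without HT replicate 3. The largest difference was that of the receptor subunit Gabrb2 (-0.71 ± 0.36, edgeR unadjusted p = 0.0864), followed in p by the transporter Slc6a11 (-0.38 ± 0.25). Of 22 glutamate receptor genes 0 had an unadjusted p under 0.05 (median -0.14), and with the replicate block 4 of the list were lower at that threshold. The median was -0.056 without NC replicate 3 and -0.013 without HT replicate 2, where 11 genes were fitted higher and 11 lower. Without the block 4 members did not overlap between groups, 1 above and 3 below NC, namely Grik5 (0.31 ± 0.14), Grin2b (-0.55 ± 0.27), Gria4 (-0.23 ± 0.12) and Grin2a (-0.93 ± 0.55), and Grin2a was at 6.003 CPM in HT replicate 2 against 30.9 to 59.5 CPM elsewhere. Of 31 neuropeptides and receptors 0 had an unadjusted p under 0.05 (median 0.03, from -0.098 without NC replicate 3 to 0.26 without NC replicate 1), against 2 higher without NC replicate 1 and 1 higher and 2 lower without HT replicate 3. Oprm1, the mu opioid receptor, was at 3.90, 1.68 and 7.45 CPM in HT and at 4.17, 10.4 and 10.04 CPM in NC (log2 fold change -0.92 ± 0.55, edgeR unadjusted p = 0.135), and the somatostatin receptor Sstr1 had a log2 fold change of -0.46 ± 0.28. In the neuregulin and ERBB list 1 of 10 genes was lower (median -0.12, from -0.18 without HT replicate 1 to 0.022 without NC replicate 2). This count was 0 without any single NC library or HT replicate 3, and without HT replicate 2 another 2 genes were higher. The lower gene was Erbb4, a neuregulin receptor of interneurons, at 17.0, 7.26 and 14.2 CPM in HT and at 21.5, 20.8 and 19.8 CPM in NC (log2 fold change -0.69 ± 0.29, edgeR unadjusted p = 0.0462). Of 16 heat shock and chaperone genes 0 had an unadjusted p under 0.05 (median 0.04, and -0.0008 without NC replicate 2), against 1 higher without HT replicate 1 or HT replicate 3, with Hspb1 at a log2 fold change of 0.46 ± 0.21 and Hsp90aa1 at -0.31 ± 0.25.

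The effect in the CEA was set beside that in the PVN, whose libraries are separate from those of the CEA. The methods count 12 rats for the 24 libraries but state that samples came from different animals, so that whether a rat gave libraries of both regions is unclear. Among SEA libraries LOC103690108 was high in replicate 3 only, in both regions (46.1 CPM in the CEA and 69.4 CPM in the PVN). Whether same-numbered libraries share a rat was not tested. The test treats all libraries as independent, and like values in both regions are not a separate replication if rats were shared. By the interaction term of edgeR, 0 of 17405 genes (0.0%) had an adjusted p under 0.05, and 2103 (12.1%) had an unadjusted p under 0.05. With the replicate block the adjusted count was 0 and the unadjusted count 2596. Without PVN NC replicate 2 the adjusted count was 693 and the unadjusted count 3856. The unadjusted count was 3408 without CEA HT replicate 1 and 1157 without CEA NC replicate 3. Among PVN libraries it was 923 or 1135 when NC replicate 1 or 3 was left out, and 1229 when HT replicate 1 was. DESeq2 gave 1 gene at an adjusted p under 0.05, Nkrf, which was chosen here after its value was seen. In the PVN alone 5.69% of genes were higher and 5.35% lower in HT at an unadjusted p under 0.05.

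Immediate early genes had a median log2 fold change of -0.43 in the CEA and -0.31 in the PVN, where 7 were lower and 1 higher. Fos had a log2 fold change of -0.88 ± 0.22 in the PVN and Nr4a1 one of -1.10 ± 0.28, and their interaction p-values by edgeR, unadjusted, were 0.0679 and 0.700. Egr2 had -0.06 ± 0.35 in the PVN (difference between regions by edgeR, unadjusted p = 0.00705, adjusted p = 0.413). Cell division genes were lower in the PVN as well, with 9 of them at an unadjusted p under 0.05 and a median of -0.57. Of cholesterol and fatty acid genes 10 were lower and 1 higher there, with a median of -0.07, and Scd had a log2 fold change of -0.95 ± 0.17. Of clock genes 8 were higher in the PVN, with a median of 0.29. Heph had a log2 fold change of 1.21 ± 0.13 in the PVN and Lrg1 one of 2.60 ± 0.39.

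Other groups lay apart between the regions in the fitted values. Ribosomal protein genes had a median of -0.24 in the PVN, where 13 were lower and 0 higher, and 41 of the 87 had an unadjusted interaction p under 0.05. Oxidative phosphorylation genes had a median of -0.22 in the PVN, with 25 lower, and 20 of the 92 had such an interaction. GABA genes had a median of 0.35 in the PVN with 7 higher, and 5 of 19 had such an interaction. Of the PVN controls 2 stood apart for Gabrb2 and Grin2a. Scaled over all 24 libraries, Gabrb2 was at 12.3 and 25.9 CPM in PVN NC replicates 1 and 3, and at 59.2 CPM in PVN NC replicate 2 against 63.2 to 75.7 CPM in PVN HT. Grin2a was at 2.28 and 3.76 CPM in the same 2 controls, at 17.7 CPM in the other and at 16.64 to 22.45 CPM in PVN HT. The part of these 2 libraries in the result was not tested. Microglial markers had a median of 0.02 in the PVN, and Ctss had an unadjusted interaction p of 0.0216 by edgeR. Mgp had a log2 fold change of -0.07 ± 0.15 in the PVN (difference between regions by edgeR, unadjusted p = 0.000833, adjusted p = 0.413). Rarres2 had one of -0.37 ± 0.19 (edgeR difference, unadjusted p = 0.00109) and Col8a1 one of 0.07 ± 0.39 (unadjusted p = 0.00462). None of these differences between regions passed the adjusted threshold.

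**Figure D5:**
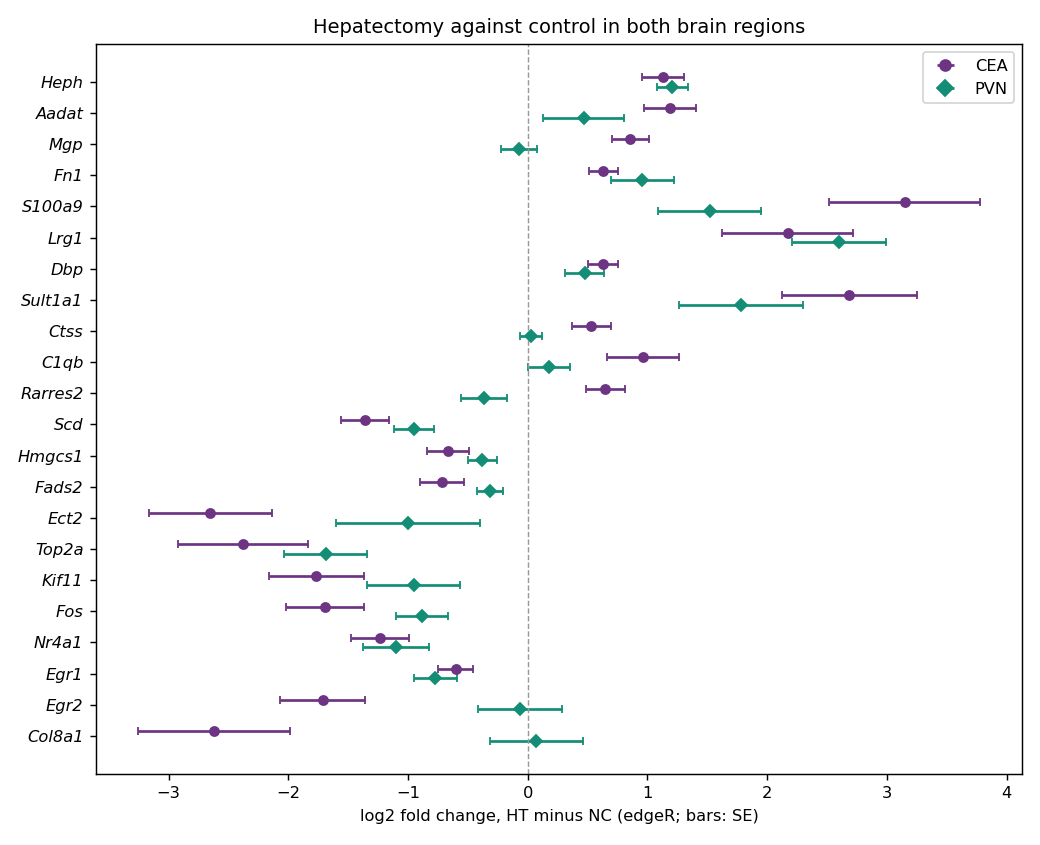
Log2 fold change (HT minus NC, edgeR) of 22 named genes in the CEA (circles) and the PVN (diamonds), with bars of 1 SE. Heph lies at 1.13 and 1.21, Egr2 at -1.71 and -0.06, and Mgp at 0.86 and -0.07.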

How the data were processed

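Strand-specific mRNA libraries of the CEA and PVN were prepared and sequenced by a company. Reads were aligned with HISAT2, and the authors deposited raw read counts per gene from featureCounts in 1 table (versions, strand setting and handling of multi-mapping reads not given in the sources used here). The methods name the rat build mRatBN7.2, whereas the submitters' processing notes list GRCh38 and hg38. Genes of chromosome 1 end as far as 282724300 in the table, so that its coordinates are given as deposited with no build. All 24 mRNA columns were matched to samples by their names, and 0 columns were left over.

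Of 35032 genes in the table, 2149 were assembled without an Ensembl identifier. HT and NC libraries of the CEA were compared in R 4.3.3 by edgeR 4.0.16, using its quasi-likelihood test (filterByExpr, TMM, Benjamini-Hochberg adjustment, threshold 0.05, two-sided), and SE is the log2 fold change divided by the root of F. The difference from the PVN was the interaction term over 12 libraries. DESeq2 1.42.0, other scaling and filters, a fit of all 4 CEA groups, a replicate block and leaving out each library were alternatives. Methods were tested on simulated data. At these depths 1 count was 0.0549 to 0.0618 CPM, and 0 counts allowed up to 0.165 to 0.185 CPM (3 counts, counting error only). Same-numbered HT and NC libraries deviated together from their group means (correlations 0.187 to 0.332), and the pairing comes from the replicate numbers in the sample titles. Other pairs had correlations of -0.282 to 0.00447. Deviations from a group mean add up to 0, so that these lower values follow in part from the higher ones and are no separate sign of pairing.

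Named genes were the 10 of smallest edgeR p in each direction without overlap between groups, any gene past the adjusted threshold, up to 4 non-overlapping members of each list (otherwise up to 2 of smallest p), DESeq2 calls, and Crh. Other list members are named as further examples, chosen after their values were seen. Members and lists were chosen with earlier results of these data known. Listed symbols missing from the table were not analysed here, and single values of some list members are not reported here.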

Additional observations from a re-analysis of the deposited data

How the results depend on the processing

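The count of genes at an adjusted p under 0.05 in HT against NC was 0 with edgeR, 26 with DESeq2 and 1 without the low-count filter, and 0 to 1 when single libraries were left out. The count at an unadjusted p under 0.05 was 616, against 1023 with all 4 CEA groups in one fit, 985 with the replicate block and 257 to 1299 when single libraries were left out. With the replicate block no named gene turned its sign or passed the adjusted threshold, but it moved unadjusted counts in several lists, from 0 to 4 lower for glutamate receptors and for thalamus, from 0 to 1 lower for GABA transmission, CEA neurons and cortex, from 1 to 0 higher for mural cells and from 1 to 0 lower for the acute phase. The block also moved list medians, to 0.30 for glucocorticoid-responsive genes, -0.48 for cortex, -0.24 for hypothalamus, -0.034 for neuropeptides, 0.084 for the mitochondrial genome, -0.0092 for the stress hormone system, -0.010 for oligodendrocytes and -0.009 for ependyma. The hypothalamic median was -0.51 with DESeq2. The interaction with the PVN gave 0 genes at an adjusted p under 0.05, against 1 with DESeq2 and 0 to 693 when single libraries were left out. Of 100 named genes 92 kept the sign of the log2 fold change under every alternative run. With single libraries left out the sign turned in 6. The log2 fold change ran from -0.034 (without HT replicate 1) to 0.57 for Rgs9, from -0.00 (without HT replicate 1) to 0.45 for Ppp1r1b and from -3.01 to 0.96 (without NC replicate 3) for Neurod2. It ran from -3.59 to 0.74 (without NC replicate 1) for Hcrt, from -1.30 to 0.046 (without NC replicate 2, and 0.044 without HT replicate 1) for Trh and from -0.084 (without HT replicate 2) to 1.13 for Hbb. Without both libraries numbered 1, an alternative chosen after seeing the data, it turned for Hcrt (1.29), Hba-a2 (0.057) and Crh (0.22). The cause of these changes was not tested. Of 434 list medians under the alternatives, 414 moved by less than the spread between libraries and 20 by more. This spread was each list's own SD, so that lists that varied widely between libraries counted as unmoved more readily. The cortical list, with an SD of 1.42, counted as unmoved at medians of -1.20 and 0.67. Each group had 3 libraries, and HT replicate 2, NC replicate 2 and both libraries numbered 1 stood apart in marker levels or expression.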
